A study of Homo sapiens with 8 samples.

Results

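The albumin family is a group of related genes for proteins that carry other molecules in blood plasma, and 4 of its members were followed here in HepG2, an established line of human hepatocellular carcinoma: AFP, ALB, AFM and GC. They were taken by gene symbol from the table of 58735 genes, 1 row each, and the set was selected on their FPKM values in these same libraries, which were already known. FPKM gives the reads of a gene scaled to its length and to the size of the library. Differences of the 4 members between the groups are therefore given as a description, with no test. DNMT3A is an enzyme that methylates CpG dinucleotides not methylated before. Poly(A) RNA came from 4 DNMT3A libraries, of cells made to overexpress DNMT3A through lentivirus, and 4 control libraries, of genotype WT in the labels. The library names of both groups begin with pLV_EGFP, and the labels say neither what the control cells received nor how long after infection RNA was collected, nor whether a group is 1 clone.

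ALB encodes serum albumin, the main plasma protein of the adult, which binds fatty acids, hormones and drugs. AFP encodes alpha-fetoprotein, made by yolk sac and fetal liver, shut down in the liver after birth and made again by many hepatocellular carcinomas. AFM encodes afamin, a carrier of vitamin E that also binds Wnt proteins, and GC encodes the vitamin D-binding protein, which also captures free actin in plasma. ALB, AFP and AFM lie side by side on 1 strand, and in mouse the Alb and Afp promoters share the enhancers between the genes. Hepatocyte factors of the HNF4, FOXA and C/EBP families bind these promoters and enhancers, while ZBTB20 and ZHX2 are known from mouse as repressors of Afp after birth.

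On hg38 the members lie on chromosome 4. ALB (ENSG00000163631) spans 73397114 to 73421412 on the plus strand, AFP (ENSG00000081051) 73431138 to 73456174 on the plus strand, AFM (ENSG00000079557) 73481683 to 73504001 on the plus strand, and GC (ENSG00000145321) 71741693 to 71804041 on the minus strand. Between these outer bounds lie 9725 bases from ALB to AFP and 25508 from AFP to AFM, while GC ends 1593072 bases before ALB begins. The bounds cover all transcripts of a gene. The main coding transcript starts inside them for ALB, at 73404239, and for AFP, at 73436163, so the gap between these 2 transcripts is wider. The exons that the table's lengths cover add up to 3377 bases for ALB, 3259 for AFP, 2244 for AFM and 2381 for GC, each equal to the merged exons of all its transcripts in GENCODE release 29. No other gene of the table overlaps ALB, AFP or AFM, and GC holds 1 ribosomal RNA pseudogene with no reads.

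The promoters of the 3 neighbouring genes are shown because DNMT3A acts on CpG dinucleotides and these neighbours differed unequally between the groups. Each runs 5′ to 3′ from 250 bases before to 50 bases after the RefSeq start on GRCh38.p14, plus strand, with every CpG in capitals. The ALB and AFP stretches lie inside the gene spans, near the starts of the main coding transcripts. RefSeq sequence was matched for 3 of the 4 members, and GC is named only.
AFP promoter, chr4:73435971-73436270: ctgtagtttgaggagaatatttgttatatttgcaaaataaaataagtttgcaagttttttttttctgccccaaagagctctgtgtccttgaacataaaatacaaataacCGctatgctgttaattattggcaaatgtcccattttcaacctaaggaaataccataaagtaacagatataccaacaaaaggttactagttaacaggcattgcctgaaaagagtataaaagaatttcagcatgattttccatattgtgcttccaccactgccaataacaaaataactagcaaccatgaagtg
ALB promoter, chr4:73404037-73404336: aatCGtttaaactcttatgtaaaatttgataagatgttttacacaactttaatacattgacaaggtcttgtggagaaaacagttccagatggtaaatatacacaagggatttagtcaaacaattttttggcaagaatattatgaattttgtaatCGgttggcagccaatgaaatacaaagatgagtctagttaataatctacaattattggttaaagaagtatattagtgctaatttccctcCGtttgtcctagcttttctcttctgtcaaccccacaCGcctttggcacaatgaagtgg
AFM promoter, chr4:73481495-73481794: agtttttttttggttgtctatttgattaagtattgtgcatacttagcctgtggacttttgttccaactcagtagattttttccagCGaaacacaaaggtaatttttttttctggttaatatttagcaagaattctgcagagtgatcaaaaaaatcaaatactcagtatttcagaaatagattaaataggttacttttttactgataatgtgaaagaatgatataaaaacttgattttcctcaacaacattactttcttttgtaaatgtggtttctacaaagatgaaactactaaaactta
The AFP stretch holds 1 CpG, 141 bases before the start, the AFM stretch holds 1, 165 bases before it, and the ALB stretch holds 4. Among 35116 promoters of the same length the median was 14 CpG (quartiles 4 and 28), and 11.0% held 1 or fewer and 29.6% held 4 or fewer. TATAAA, searched on both strands, occurs 29 bases before the AFP start and 30 before the AFM start, and not in the ALB stretch (11.5% of all promoters hold it). CCAAT, on either strand, occurs in the AFP and ALB stretches and not in that of AFM (34.6% of all promoters). GTTAAT, searched on both strands for the factor HNF1, occurs in all 3 stretches (6.88% of all promoters). It lies 132 bases before the AFP start, 61 before the ALB start and 137 before the AFM start. No match overlaps another. DNA methylation was not measured in these samples.

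The libraries held 17232809 to 17626137 recovered reads in the DNMT3A group and 15911019 to 17677093 in the controls. DNMT3A itself ranged from 7.26 to 10.2 FPKM in the DNMT3A libraries and from 3.45 to 3.89 FPKM in the controls (log2 difference 1.09, limma adjusted p = 0.000122). All 10 hepatocyte markers fixed for the check had a mean of at least 1 FPKM, as did 3 of 5 bile duct markers (EPCAM, SOX9 and KRT19). None of 6 fibroblast, 5 endothelial and 6 blood markers reached that level, and PTPRC, CD3E and HBB were at 0 in all 8 libraries. The bile duct markers summed to 197 to 219 FPKM in DNMT3A libraries and 209 to 233 FPKM in controls, but single markers moved in opposite directions. SOX9 was at 71.1 to 81.4 FPKM in DNMT3A libraries and 58.4 to 65.4 FPKM in controls. EPCAM was at 70.0 to 75.5 and 91.4 to 102 FPKM, and KRT19 at 52.4 to 73.5 and 58.2 to 72.1 FPKM. The blood markers, nearly all from CD14, summed to 0.638 to 0.695 FPKM in DNMT3A libraries and 1.12 to 1.60 FPKM in controls. Their part in the results was not tested.

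AFP was the member that differed most between the groups. Its level was 1159, 867, 1275 and 1273 FPKM in DNMT3A libraries 1 to 4, against 371, 371, 358 and 380.1 FPKM in control libraries 1 to 4. Every DNMT3A library lay above every control library, and library 2 was the lowest of the DNMT3A group. The means were 1143 ± 192 FPKM in DNMT3A libraries and 369.9 ± 9.28 FPKM in controls (SD, n = 4 each), a ratio of 3.09 and a difference of 1.61 on the log2(FPKM + 1) scale (SE 0.13). In bulk RNA, more cells that express AFP and more AFP RNA per cell cannot be told apart. By this difference AFP was at rank 5, from the top, of the 11620 genes whose FPKM averaged 1 or more, and at rank 3 of the 10038 protein-coding ones. A difference of at least 1 either way was found for 0.861% of the 11620 genes. The ranks and this share only describe AFP, because the members were chosen with these values known. AFP took 0.377% ± 0.0599 of all reads in DNMT3A libraries and 0.120% ± 0.00318 in controls. By level it stood between ranks 20 and 27 of all genes in DNMT3A libraries, and between ranks 53 and 65 in controls.

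ALB, the gene next to AFP, had overlapping levels in the groups. It was at 6929, 4903, 6592 and 6583 FPKM in DNMT3A libraries 1 to 4, against 6271, 6446, 6058 and 5978 FPKM in control libraries 1 to 4. The controls lay inside the range of the DNMT3A libraries, of which library 2 was the lowest and the other three were all above the highest control. The mean was 6252 ± 913 FPKM in DNMT3A libraries and 6188 ± 212 FPKM in controls (SD, n = 4 each), and the difference was 0.00 on the log2 scale (SE 0.12). Without DNMT3A library 2 that difference was 0.12. ALB held 2.14% ± 0.281 of all reads in DNMT3A libraries and 2.09% ± 0.0814 in controls, and it ranked 7 to 9 among all genes in every library of both groups.

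AFM was low in every library. Its level was 0.434, 0.511, 0.308 and 0.228 FPKM in DNMT3A libraries 1 to 4, against 0.867, 0.803, 0.901 and 0.532 FPKM in control libraries 1 to 4. The groups came close together, since the highest DNMT3A library (0.511 FPKM) was just under the lowest control (0.532 FPKM). The values rest on 17, 21, 12 and 9 reads in the DNMT3A libraries and 31, 31, 32 and 21 reads in the controls, so that 21 reads occurred in both groups. As shares of all reads the groups overlapped. The means were 0.370 ± 0.127 FPKM in DNMT3A libraries and 0.776 ± 0.168 FPKM in controls (SD, n = 4 each), a ratio of 0.477. The summed reads were 59 in the DNMT3A libraries (95% exact Poisson interval 44.9 to 76.1) and 115 in the controls (94.9 to 138), intervals that cover counting error only.

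GC was at the limit of detection. It was at 0.120, 0.0229, 0.0967 and 0 FPKM in DNMT3A libraries 1 to 4, against 0.0791, 0.0732, 0.0531 and 0.0954 FPKM in control libraries 1 to 4. The groups overlapped throughout, from 5, 1, 4 and 0 reads in the DNMT3A libraries and 3, 3, 2 and 4 reads in the controls. The 0 of DNMT3A library 4 allows up to 0.0716 FPKM, the level of 3 reads. The summed reads were 10 in the DNMT3A libraries (95% exact Poisson interval 4.80 to 18.4) and 12 in the controls (6.20 to 21.0), and a difference in GC was not detectable at this depth.

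**Figure D1:**
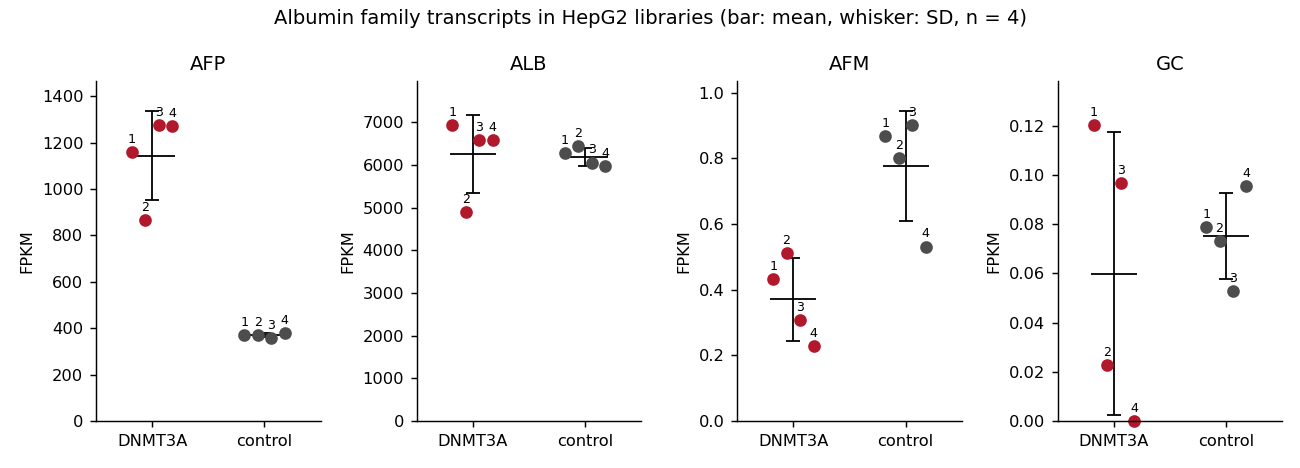
Level of each family member in FPKM (vertical axes from 0, 1 panel per gene) in the 4 DNMT3A libraries (left, red) and the 4 control libraries (right, grey); points are libraries with their replicate numbers, bars are means and whiskers SD. AFP averages 1143 FPKM in DNMT3A libraries and 369.9 FPKM in controls, ALB overlaps between the groups, AFM is below 1 FPKM everywhere and GC is at or near 0.

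The groups did not overlap in FPKM for 2 of the 4 members, AFP (higher with DNMT3A) and AFM (lower). That held for 25.1% of genes averaging 1 FPKM or more, a level that AFP and ALB passed and AFM and GC did not, and for 12.8% of the 30436 genes above 0 in at least 1 library. Nothing is read from these shares, because the members were chosen with these values known. The order of levels was ALB, AFP, AFM and GC in both groups, and no range of 1 member overlapped that of the next within a group. ALB exceeded AFP 5.47-fold by mean FPKM in DNMT3A libraries and 16.7-fold in controls, while AFM exceeded GC 6.17-fold in DNMT3A libraries and 10.3-fold in controls. AFP exceeded AFM, the next gene on its strand, 3088-fold by mean FPKM in DNMT3A libraries and 477-fold in controls.

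The ratio of AFP to ALB within a library does not depend on the library total. It was 0.167, 0.177, 0.193 and 0.193 in DNMT3A libraries 1 to 4, against 0.0591, 0.0576, 0.0590 and 0.0636 in control libraries 1 to 4. The groups did not overlap in this ratio, and DNMT3A library 2 was in the middle of its group although it was the lowest for both genes. The mean ratio was 0.183 ± 0.0129 in DNMT3A libraries and 0.0598 ± 0.00261 in controls (SD, n = 4 each), 3.05 times as high. Among the DNMT3A libraries the coefficient of variation was 16.8% for AFP and 14.6% for ALB but 7.08% for their ratio, and among the controls it was 2.51% for AFP, 3.42% for ALB and 4.36% for the ratio. AFP made up 15.4% ± 0.928 of the summed FPKM of the 4 members in DNMT3A libraries and 5.64% ± 0.232 in controls. The sum itself was 7396 ± 1089 FPKM in DNMT3A libraries and 6559 ± 212 FPKM in controls, with overlapping ranges. DNMT3A library 2 was the lowest of its group for 33.6% of all tested genes and for 5 of the 10 hepatocyte markers. Those 5 include ALB itself and FGB, the gene nearest to AFP in pattern (below), so they are no separate check.

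**Figure D2:**
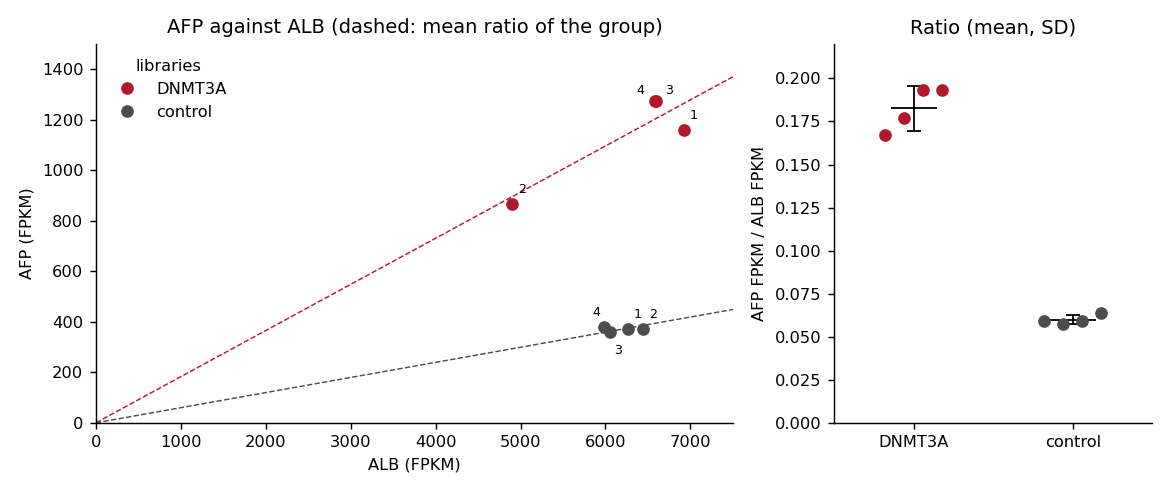
Left, AFP (vertical axis, FPKM) against ALB (horizontal axis, FPKM) in each library, with replicate numbers and dashed lines at the mean ratio of each group; right, the ratio per library with mean and SD (n = 4 each). The DNMT3A libraries lie on a steeper line (mean ratio 0.183) than the controls (0.0598), with DNMT3A library 2 at lower values of both genes.

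Genes were next ordered by how near their pattern over the 8 libraries was to that of a member. The measure was the root mean square distance between deviations of log2(FPKM + 1) from each gene's own control mean, over the 10038 protein-coding genes above the filter. Nearest to AFP was FGB, the fibrinogen beta chain and also a secreted liver protein, at a distance of 0.09. FGB was at 110, 94.0, 115 and 110 FPKM in DNMT3A libraries 1 to 4, against 36.1, 34.5, 32.5 and 35.0 FPKM in control libraries 1 to 4. Its lowest DNMT3A library was library 2, as for AFP, but FGB was picked for its likeness to AFP over these same libraries. The next were CDH2, the adhesion protein N-cadherin (distance 0.13; 8.04 ± 0.402 FPKM in DNMT3A libraries and 1.91 ± 0.116 FPKM in controls), and PCK1, a gluconeogenic enzyme (distance 0.22; 2.17 ± 0.4998 FPKM in DNMT3A libraries and 0.272 ± 0.0513 FPKM in controls). Adding 1 to FPKM understates the differences of low genes such as CDH2 and PCK1, so their distances to AFP depend on that scale. No other added value was tried for this ordering. FGB lies on chromosome 4 as AFP does, CDH2 on chromosome 18 and PCK1 on chromosome 20. Nearest to ALB were SPRED1, an inhibitor of Ras signalling (distance 0.05), PLOD2, a collagen lysyl hydroxylase (0.06), and IL6ST, the gp130 receptor subunit (0.06). These were low in DNMT3A library 2 as ALB was, which their choice by likeness over these same libraries favours. PLOD2, for example, was at 45.7, 33.8, 44.9 and 45.9 FPKM in DNMT3A libraries 1 to 4, against 41.6, 40.9, 38.2 and 40.3 FPKM in control libraries 1 to 4.

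**Figure D3:**
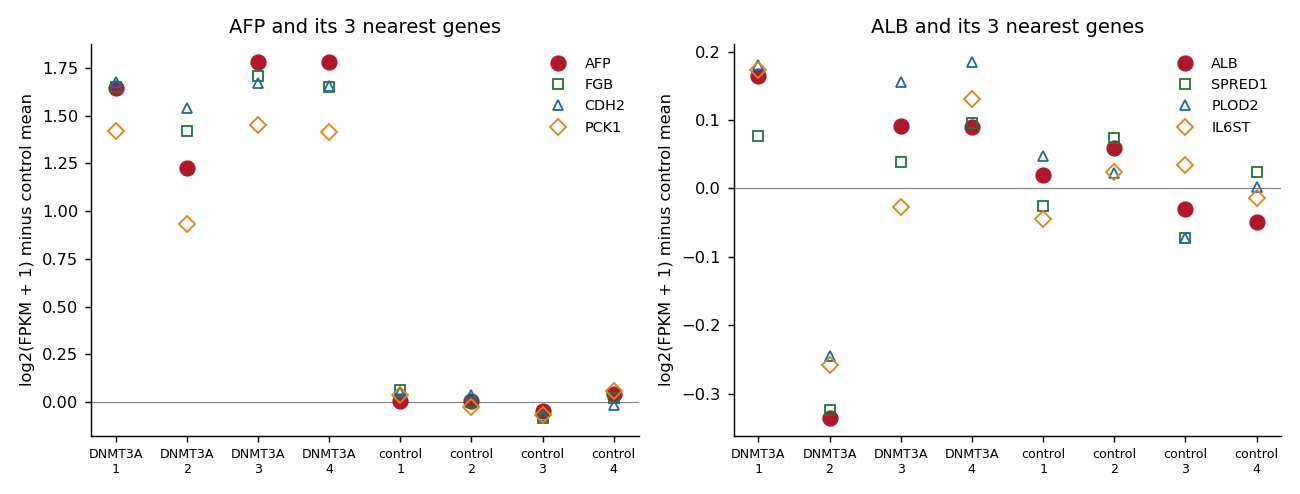
Deviation of log2(FPKM + 1) from the gene's own control mean (vertical axes) in each of the 8 libraries (horizontal axes, DNMT3A left of control) for AFP and ALB (filled red) and the 3 genes nearest to each in pattern. AFP and FGB lie furthest apart in DNMT3A library 2, at 1.23 and 1.42. ALB and its 3 nearest genes are lowest in that library, which the choice of genes by likeness over these libraries favours.

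Around the family on chromosome 4 few genes passed the test. Of 91 other genes in the table whose start lies within 2 Mb of the start of a member, 52 were at 0 in all libraries and 14 passed the FPKM filter and were tested. Of these 14, 1 rose, 0 fell and 13 did not pass limma's threshold (adjusted p below 0.05; at an unadjusted p below 0.05, 2 were higher and 1 lower, and voom also called 1 higher and 0 lower), against 20.6% of all 11620 tested genes that passed it (9.93% higher and 10.6% lower with DNMT3A). The median log2 difference of the 14 was -0.10, beside -0.01 over all tested genes. The 1 gene that rose was ANKRD17, an ankyrin repeat protein that lies beyond ALB from AFP, with 17.0 ± 0.978 FPKM in DNMT3A libraries and 13.996 ± 1.29 FPKM in controls (SD, n = 4 each; log2 0.27, SE 0.07, limma adjusted p = 0.0284). ANKRD17 was not called when DNMT3A library 1 or 3, or control library 1 or 2, was left out (adjusted p 0.0542 to 0.0795). ODAM, an enamel-associated protein (log2 0.17, adjusted p = 0.14), and GRSF1, an RNA-binding protein of mitochondria (log2 -0.12, adjusted p = 0.153), the most abundant of the others, did not pass. ODAM passed when control library 2 was left out (adjusted p = 0.0443), and UTP3, a nucleolar protein named after its value was seen (log2 -0.22, adjusted p = 0.061), passed without DNMT3A library 3 (0.0425) or control library 3 (0.039). CXCL8, a chemokine and the first tested gene beyond AFM, named after its value was seen, was at a log2 of -0.07.

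**Figure D4:**
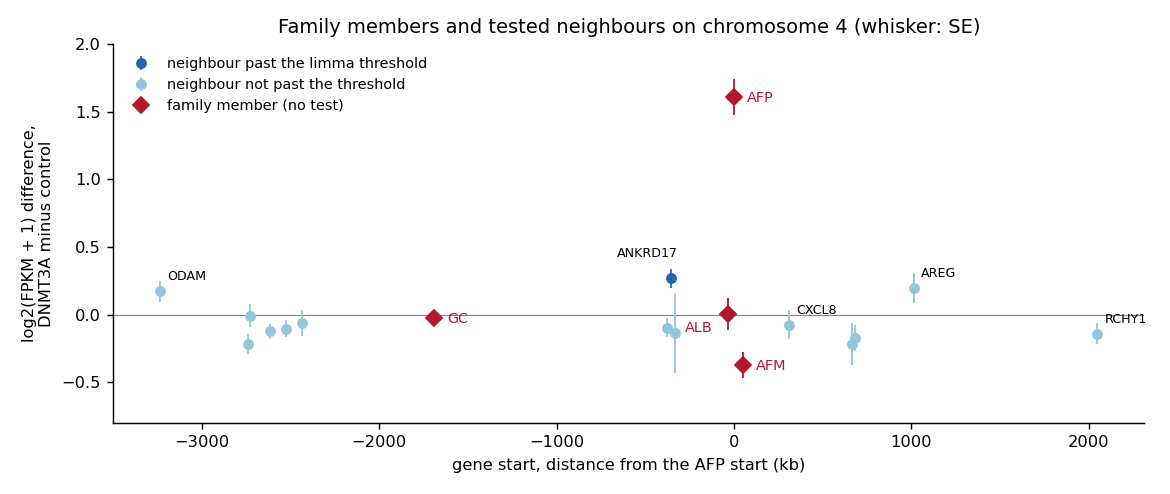
Difference in log2(FPKM + 1), DNMT3A minus control (vertical axis), against the distance of the gene start from the AFP start in kb (horizontal axis); diamonds are the 4 family members and circles the 14 tested neighbours, dark where limma's adjusted p was below 0.05, and whiskers are SE. AFP stands at 1.61 while ALB is at 0.00, AFM at -0.37 and the neighbours between -0.22 and 0.27.

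Among transcription factors known to activate AFP or ALB, single members were called in each direction. Of 27 listed activators 24 were tested: 3 rose, 2 fell and 19 stayed short of the threshold, 20.8% called against 20.6% of all tested genes, with a median log2 difference of 0.01. CEBPA, which activates hepatocyte genes including ALB, fell to 23.1 ± 4.98 FPKM in DNMT3A libraries, against 45.3 ± 4.76 FPKM in controls (log2 -0.96, limma adjusted p = 0.00199). CEBPG, a partner of other C/EBP proteins, fell by 0.31 on the log2 scale (adjusted p = 0.00603). ONECUT2, a paralog of HNF6, rose (log2 0.45, adjusted p = 0.0037), and FOXA3, a pioneer factor, rose (log2 0.38, adjusted p = 0.0182). FOXA3 was not called without control library 3 (adjusted p = 0.0543). The most abundant others, HLF (log2 0.13) and CEBPB (log2 -0.18), did not pass. HLF passed without DNMT3A library 2 (adjusted p = 0.0302). The following were named after their values were seen. NR5A2, which binds the AFP promoter, rose (log2 0.26, adjusted p = 0.0462) but kept its call in only 1 of the 8 fits that left out a library. HNF4A, a nuclear receptor of hepatocytes, had a log2 of 0.18 (adjusted p = 0.247, and 0.0149 without DNMT3A library 4). Without control library 3 the list had 3 calls, 1 up and 2 down.

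Of 18 listed repressors 16 were tested: 2 rose, 2 fell and 12 did not pass, so that 4 of 16 were called, a share near the 20.6% of all tested genes, with a median log2 of -0.05. SKIL, the SMAD co-repressor SnoN, fell to 3.99 ± 0.552 FPKM in DNMT3A libraries, against 7.10 ± 0.546 FPKM in controls (log2 -0.70, limma adjusted p = 0.00092). NR2F2, an orphan nuclear receptor, fell by 0.51 on the log2 scale (adjusted p = 0.000428). SMAD3, a transducer of TGF-beta signals, rose (log2 0.33, adjusted p = 0.00482), and ZHX3, a homeobox repressor, rose (log2 0.31, adjusted p = 0.0173). SKI (log2 -0.07) and ZHX2 (log2 0.14, adjusted p = 0.284) did not pass. ZBTB20, named after its value was seen, was at 0.0782 ± 0.0322 FPKM in DNMT3A libraries and 0.0612 ± 0.0294 FPKM in controls, under the filter. ZHX3 overlaps PLCG1 on the other strand, and with no strand stated the reads of such pairs cannot be told apart.

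Receptors, ligand enzymes and secretion factors that serve the family were called in both directions. Of 29 listed partners 24 were tested: 2 rose, 5 fell and 17 did not pass, 29.2% called against 20.6% of all tested genes, with a median log2 of 0.01. AMN, the anchor of the cubilin receptor that takes up albumin, fell by 0.64 on the log2 scale (limma adjusted p = 0.000769). CYP24A1, which inactivates vitamin D, fell by 0.57 (adjusted p = 0.00266). MIA2, which helps to load large cargo for export from the endoplasmic reticulum, rose (log2 0.64, adjusted p = 0.00159), and it lies on chromosome 14 between 20 and 45 Mb, where 88 of 114 tested genes rose and 0 fell (limma; 98 higher and 1 lower at an unadjusted p below 0.05, and 92 rose and 0 fell with voom). GSN, the actin-severing partner of GC in plasma actin clearance, rose (log2 0.36, adjusted p = 0.0132). ACTG1 (log2 -0.18, adjusted p = 0.0862) and the chaperone CALR (log2 0.06) did not pass. The albumin-recycling receptor FCGRT, named after its value was seen, had a log2 of -0.16 (adjusted p = 0.0833), and its light chain B2M, named likewise, fell by 0.23 (adjusted p = 0.03; 0.057 to 0.0817 when DNMT3A library 1 or any of control libraries 1 to 3 was left out). The remaining falls, also named after their values were seen, were ACTB, an actin that GC binds (log2 -0.31, adjusted p = 0.0202; 0.0569 to 0.0655 without DNMT3A library 1, control library 2 or control library 3), and CYP27A1, a vitamin D 25-hydroxylase (log2 -0.17, adjusted p = 0.0317; 0.0514 to 0.0781 in the 7 of 8 fits that lost it). AMN overlaps CDC42BPB and GSN overlaps RAB14 on the other strand, and ACTB is nearly identical to ACTG1, so their values are uncertain. Leaving out DNMT3A library 1, control library 2 or control library 3, the list had 4 calls, 2 up and 2 down.

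Genes known to be higher in fetal liver, as AFP is, moved in both directions. Of 21 rows in the table for the list, 12 were tested: 4 rose, 2 fell and 6 did not pass, so that 6 of 12 were called against 20.6% of all tested genes, with a median log2 of 0.14. IGF2BP1, an RNA-binding protein of fetal tissues, rose to 51.5 ± 4.54 FPKM in DNMT3A libraries, against 40.9 ± 3.64 FPKM in controls (log2 0.32, limma adjusted p = 0.0227), and the imprinted gene DLK1 rose (log2 0.28, adjusted p = 0.0225). EPCAM, a marker of progenitor and biliary cells, fell by 0.40 on the log2 scale (adjusted p = 0.00139). Named after their values were seen, the imprinted gene PEG3 rose (log2 0.27, adjusted p = 0.00935) and HMGA2, a chromatin protein of fetal tissues, fell by 0.18 (adjusted p = 0.0355; 0.0521 to 0.102 in the 6 of 8 fits that lost it). GPC3, an oncofetal glypican at 1093 ± 100.3 FPKM in DNMT3A libraries and 1124 ± 39.3 FPKM in controls (log2 -0.04, adjusted p = 0.725), and PKM (log2 0.12) did not pass. IGF2, a fetal growth factor named after its value was seen, was at 39.0, 26.7, 24.5 and 14.6 FPKM in DNMT3A libraries 1 to 4, against 18.3, 12.8, 13.4 and 15.2 FPKM in control libraries 1 to 4. The groups overlapped through DNMT3A library 4, and IGF2 did not pass (log2 0.71, limma adjusted p = 0.0643, and 0.00537 without that library). With all libraries IGF2 passed under voom (adjusted p = 0.0127), array weights (0.00888) and the replicate block (0.0342), and not under the other settings. ALDOA (log2 0.34, adjusted p = 0.0246) rose, but it overlaps another gene on the same strand, so its value is uncertain. Some of these calls were lost in fits that left out 1 library. Over all tested genes such fits called 1508 to 2443, against 2389 with every library. IGF2BP1 was not called without DNMT3A library 1, control library 2 or control library 3 (adjusted p 0.0559 to 0.0621). DLK1 was not called without those 3 or without DNMT3A library 3 (0.0503 to 0.069), and ALDOA was not called without 5 of the 8 libraries (0.05 to 0.0736). The list had 3 calls without DNMT3A library 3 and 2 without control library 2 or 3.

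Genes known to be higher in adult liver, as ALB is, included TTR, which had a large rise, and PCK1, which passed the filter only through the DNMT3A libraries. Of 20 listed, 10 were tested and the others lay below the filter: 2 rose, 2 fell and 6 did not pass, 40.0% called against 20.6% of all tested genes, with a median log2 of 0.14. TTR, the thyroxine and retinol carrier, rose to 17.1 ± 1.30 FPKM in DNMT3A libraries, against 6.04 ± 1.24 FPKM in controls (log2 1.38, limma adjusted p = 8.71e-05). PCK1 rose with a log2 of 1.30 (adjusted p = 0.000208). It averaged 2.17 FPKM in DNMT3A libraries and 0.272 FPKM in controls, where every library was under the filter level. PCK1 could therefore enter the tested genes only as a higher one, and nothing is read from its part in the share called. HP, haptoglobin, fell by 0.27 on the log2 scale (adjusted p = 0.0289) and CPS1, the first enzyme of the urea cycle, by 0.20 (adjusted p = 0.0455). Both falls lost their calls in most fits that left out a library (HP in 6 of 8, 0.0525 to 0.0755; CPS1 in 7 of 8, 0.0514 to 0.117), and HP overlaps TXNL4B on the other strand. The abundant plasma proteins APOA1 (log2 0.09, adjusted p = 0.543) and SERPINA1 (log2 0.08, adjusted p = 0.594) did not pass, and their means were 1287 ± 143 and 784 ± 81.6 FPKM in DNMT3A libraries and 1210 ± 88.4 and 742 ± 60.7 FPKM in controls. Leaving out DNMT3A library 2 or 4, or control library 1, 2 or 4, the list had 2 calls, both up, and it had 3 in each of the other leave-outs.

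**Figure D5:**
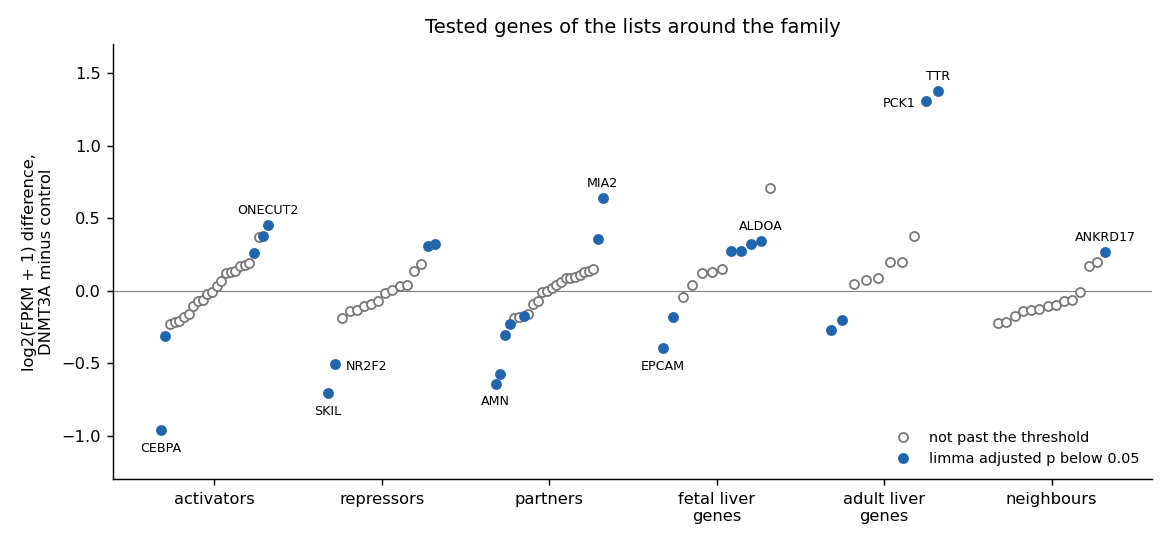
Difference in log2(FPKM + 1), DNMT3A minus control (vertical axis), of the tested genes of each list around the family (horizontal axis), sorted within a list; filled circles have a limma adjusted p below 0.05 and the largest of them are named. Each of the first 5 lists has genes called in both directions, with CEBPA lowest at -0.96 and TTR highest at 1.38.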

How the data were processed

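RNA was measured in 8 HepG2 libraries, 4 per group. The deposited values are FPKM per gene and library, per the file headers. The submitters' processing notes name the aligner HISAT2 2.0.5 and the build hg38. How reads were counted is not given in the sources used here. Poly-T beads, random primers and fragments of 370 to 420 bp were used, per the labels' protocols, which name no step that marks strand. All 58735 genes had the coordinates of GENCODE release 29. FPKM times gene length gave whole multiples of 1 step for 100% of values (tolerance 0.01), from which reads were recovered.

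Genes averaging 1 FPKM or more (11620) were compared on log2(FPKM + 1), which understates differences of low genes, with limma 3.58.1 in R 4.3.3 (intensity trend, Benjamini-Hochberg adjustment over all tested genes, threshold 0.05). The 4 members got no test. The members and lists were chosen with earlier results of these data known. From each list the rule named the called genes of largest change (at most 4) and the most abundant uncalled ones (at most 2), and for AFP and ALB the 3 nearest genes; others are marked as named after their values were seen. Members of lists were matched by symbol, and 2 rows are named IGF2. Alternatives were a pseudocount of 0.1, testing without the filter, scaling by median ratios, rescaling to a common sum, quantile normalization, no trend, array weights, a replicate block, voom on recovered reads and leaving out each library. Whether libraries of a group came from separate cultures is not in the labels. The p-values therefore rest on a spread between libraries that may be technical. Some items of the lists are not reported here by name.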

Additional observations from a re-analysis of the deposited data

Results flagged for a closer look

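Among the 4 members, the ratio of AFP to ALB, the named genes and the genes nearest in pattern, 86 groups of 4 libraries were examined for a library far from the other three, and 7 were found. Chance alone marks about 1 in 20 such groups. The measure was the gap between the extreme library and the next, divided by the range of the group, set against Dixon's 95% critical value. In the DNMT3A group GPC3 was at 943 FPKM in library 2, against 1132 to 1151 FPKM in the others. PCK1 was at 1.43 FPKM in the same library, against 2.39 to 2.47 FPKM in the others. PCK1 is among the genes nearest in pattern to AFP, which was also lowest of its group in that library, so it is no separate check. DNMT3A library 2 was also far below the others for PLOD2, at 33.8 FPKM, and SPRED1, at 2.84 FPKM, both of which were picked for their likeness to ALB over these libraries. ALB itself stood at the critical value in that library, with a value of 0.82896 on the FPKM scale, just under it, and of 0.852 on the log2 scale, above it. AFP, AFM and GC were below it on both scales. DNMT3A library 4 was low for SKI, at 18.1 FPKM. Control library 2 was high for NR2F2, at 8.62 FPKM, and for ODAM, at 25.9 FPKM.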

How the results depend on the processing

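The log2 difference of AFP was 1.55 to 1.74 when single libraries were left out and 1.61 to 1.68 under the other settings, and that of the AFP to ALB ratio was 1.58 to 1.65. ALB ranged from -0.05 to 0.12 over all settings. AFM was lower with DNMT3A under every setting that gave it a value, from -0.44 to -0.32 without single libraries, but the size followed the scale: -0.37 with a pseudocount of 1, -0.92 with 0.1 and -0.62 after rescaling each library to a common sum. GC was at -0.02, from -0.05 to 0.01 without single libraries, and at -0.20 with a pseudocount of 0.1. Quantile normalization and voom gave no value for AFM and GC, which are under the filter. Over all genes 2389 were called, 3756 with array weights and 1508 to 2443 without single libraries (1508 without control library 3, 1551 without control library 2). Array weights gave 9 activators, 7 repressors, 11 partners and 2 neighbours. Without a filter there were 3 activators, 3 fetal genes, 2 adult genes and 2 neighbours. Without single libraries the counts were 3 to 6 for activators, 4 to 5 for repressors, 4 to 7 for partners, 2 to 7 for fetal genes, 2 to 3 for adult genes and 0 to 2 for neighbours. The cause of these moves was not tested. The replicate number as a block gave 1881 calls over all genes, 5 activators, 3 repressors, 5 partners, 4 fetal genes, 2 adult genes and 0 neighbours (limma; 2 higher and 1 lower of 14 at an unadjusted p below 0.05). Deviations of same-numbered libraries correlated at 0.16, -0.08, -0.02 and 0.10, inside the range of the other pairs (-0.32 to 0.20). These values show no pairing by number but cannot exclude it. With 9 to 32 reads for AFM and 0 to 5 for GC, depth limits what these genes can show.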
